A study of Mus musculus with 68 samples.

Results

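Septal RNA of mice that had breathed cigarette smoke for 8 months and then had 1 week of Fgf10 overexpression was compared with that of room air controls. The comparison asks what is still different from room air after both. It took 10 of the 68 arrays of the series, chosen by their titles: 5 labelled Overexp_CS8M_Septa and 5 labelled Control_RA8M_Septa. The overexpression arrays carry the labels overexpressing and cigarette smoke, and the room air arrays carry wild-type and room air. A further group, Control_CS8M_Septa, holds 5 arrays labelled wild-type and cigarette smoke from the same 8 months, and its values are set beside the comparison. The treatment text gives all 3 groups 1 week with or without doxycycline, a drug that switches on tetracycline-dependent transgenes, without saying which group received it. The labels do not name the transgene, its promoter, the cells that express it, or the strain and age of the mice. Smoke, Fgf10 status and possibly doxycycline thus differ together between overexpression and room air, and their parts cannot be told apart in that comparison. A growth text that names 3 months of smoke stands on every sample, against the 8 months in these titles. Replicates are called biological in the design text, and whether septa and vessel arrays come from the same animals is not stated.

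Alveolar septa are the thin walls between air spaces. They are built of type 1 and type 2 epithelial cells, capillaries and a few fibroblasts, and they hold macrophages and blood. Mesenchymal cells of the lung secrete Fgf10, which binds the Fgfr2b receptor on epithelial cells, and Etv4, Etv5, Dusp6 and the Sprouty genes are its usual readouts. Long smoke exposure is known to bring macrophages and neutrophils into the lung, and epithelium and liver answer inflammation with secreted acute phase proteins. All values below are log2 intensities or differences between group means on that scale, so a difference of 1 is a doubling of signal.

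The tissue label was checked by setting the same marker probes on septa and vessel arrays of each group side by side. Over 18 genes of type 1 cells the mean level was 12.53 to 12.78 on room air septa arrays against 11.52 to 12.05 on room air vessel arrays, and 12.12 to 12.59 against 11.03 to 11.57 after overexpression. Over 22 capillary genes it was 12.14 to 12.38 against 10.26 to 11.25, and 11.80 to 12.20 against 9.87 to 10.75. Over 16 smooth muscle genes, of vessel wall, septa lay lower, at 9.72 to 10.11 against 12.82 to 13.27 in room air and 9.95 to 10.25 against 11.88 to 12.58 after overexpression. Septa and vessel arrays did not overlap for these lists. Over 18 type 2 cell genes septa lay at 11.81 to 12.25 against 11.54 to 11.78 in room air. After overexpression the type 2 levels overlapped, at 12.01 to 12.92 against 11.93 to 12.36. Over 15 genes of pulmonary vein heart muscle cells, room air septa reached 6.33 and room air vessel arrays began at 6.69. After overexpression this list overlapped too, with septa up to 6.55 and vessel arrays from 6.08. An array's median correlation with the other septa arrays was 0.907 to 0.938 in room air and 0.880 to 0.945 after overexpression. Among smoke controls 1 array, replicate 4, stood apart at 0.745, against up to 0.936 for the others. Xist, the RNA of the inactive X of females, lay over 9.5 on 4 of 5 room air, 3 of 5 smoke control and 3 of 5 overexpression arrays.

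The overexpressed gene itself did not differ on its brightest probe. Fgf10 read 7.25, 8.41, 8.17, 8.78 and 8.50 in room air and 6.88, 7.75, 9.22, 8.76 and 8.43 after overexpression, a difference of -0.01 (two-sided exact permutation test p = 0.984). The groups overlapped fully. The next probe read 4.20, 5.36, 5.87, 5.95 and 5.72 in room air against 9.56, 7.08, 6.04, 5.91 and 9.35 after overexpression. The smoke controls on that probe read 7.81, 5.64, 5.10, 6.15 and 5.34, and replicate 1 of them lay above overexpression replicates 2, 3 and 4. On that probe overexpression minus smoke controls was 1.58, and against room air the difference was 2.17 (exact p = 0.0159, 0.0476 adjusted over the 3 probes), and replicates 1, 2 and 5 stood clearly above all room air arrays. Replicates 3 and 4 lay close to the highest room air array. The remaining probe was dim on all arrays and differed by -0.03 (exact p = 0.825). No source used here says which of these probes the transgene's RNA would bind, so they do not settle the Fgf10 level.

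A total of 7 genes rose and 0 fell out of 17398 tested (limma, Benjamini-Hochberg adjusted p under 0.05), which is 0.0402 percent and 0 percent. At an unadjusted p under 0.05 the fit gave 788 higher (4.53 percent) and 439 lower (2.52 percent). That split depended on centring: with each array centred on the median of its 17398 tested genes it was 610 higher and 676 lower. The adjusted counts were again 7 and 0, but Tgm1 was lost and Chil3 gained. Single arrays moved the unadjusted counts too, to 1227 and 682 without overexpression replicate 1, 503 and 333 without room air replicate 2, and 1165 and 705 without smoke control replicate 4. Centring moved the median of all genes from -0.01 to -0.14. The 5 arrays of one group lay wholly above those of the other for 177 genes that were higher after overexpression (1.02 percent) and 138 that were lower (0.793 percent). In microdissected tissue, more cells of a type and more RNA per cell cannot be told apart. The 7 genes that rose are Ly6i, Lcn2, Stfa2l1, Tgm1, Ly6f, Il1r2 and Lbp, and for each the overexpression arrays lay wholly above the room air arrays.

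Ly6i encodes a small membrane-anchored protein of the Ly6 family, whose relatives mark myeloid cells in mice. It read 5.99, 5.17, 5.80, 5.85 and 5.47 in room air and 8.69, 10.26, 10.89, 10.70 and 9.81 after overexpression. That is a difference of 4.41 ± 0.54 (SE, n = 5 per group, limma adjusted p = 0.00349). The smoke controls read 10.22, 7.72, 9.60, 10.76 and 10.47, within the same span as the overexpression arrays apart from replicate 2. Ly6f, of the same family, rose by 3.52 ± 0.56 (adjusted p = 0.0266). Its values were 7.48, 8.34, 8.14, 8.17 and 7.13 in room air and 10.99, 11.45, 11.88, 11.29 and 11.27 after overexpression. The smoke controls of Ly6f split into 3 arrays at 10.99 to 11.56 and 2 at 8.85 and 8.36. Ly6 genes resemble one another, so each probe may also read a relative. Ly6g, the family member used to mark neutrophils, differed by 1.01 and did not pass (adjusted p = 0.614).

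Lcn2 encodes lipocalin 2, which binds bacterial iron carriers and is made by neutrophils and stressed epithelium. It read 11.87, 11.83, 11.01, 12.41 and 12.25 in room air and 15.53, 15.93, 15.91, 15.93 and 15.97 after overexpression. The rise was 3.98 ± 0.49 (adjusted p = 0.00349), with the overexpression arrays close to 15.98, the top of the scale. A second, dimmer probe of Lcn2 differed by 5.56. Smoke controls read 15.97, 13.33, 15.95, 14.13 and 15.85, so 3 of them also lay near the top of the scale, where levels cannot be compared, and 2 lay lower. Stfa2l1 encodes a stefin, an inhibitor of cysteine proteases abundant in mouse neutrophils. Its values were 6.01, 5.93, 7.26, 7.80 and 6.88 in room air and 10.07, 10.54, 12.33, 8.87 and 10.52 after overexpression, a rise of 3.69 ± 0.56 (adjusted p = 0.0266). Smoke controls, at 8.49 to 10.12, lay wholly above room air and overlapped the overexpression arrays. Stefin genes are near copies, so the probe may read several of them.

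Il1r2, the decoy receptor that captures interleukin 1, read 4.43, 4.11, 3.89, 5.08 and 4.69 in room air and 6.74, 6.92, 8.63, 7.51 and 8.60 after overexpression. The rise was 3.24 ± 0.51 (adjusted p = 0.0266). No room air array exceeded percentile 40 of its array, about 5.32, so the low side of this rise is near the dim end of the scale. Lbp, the acute phase protein that passes bacterial lipopolysaccharide to Cd14, read 7.83, 6.44, 7.27, 7.06 and 7.72 in room air and 9.54, 9.26, 10.05, 10.09 and 9.60 after overexpression. Its rise was 2.44 ± 0.39 (adjusted p = 0.0266), and its smoke controls, at 8.47 to 10.11, also lay wholly above room air. Tgm1 encodes transglutaminase 1, which cross-links proteins under the membrane of squamous epithelium. It rose by 3.53 ± 0.57 (adjusted p = 0.0292), from 4.38, 5.43, 4.52, 5.01 and 3.92 to 8.44, 7.49, 10.05, 7.58 and 7.34. Only 1 room air array of Tgm1 exceeded percentile 40.

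**Figure D1:**
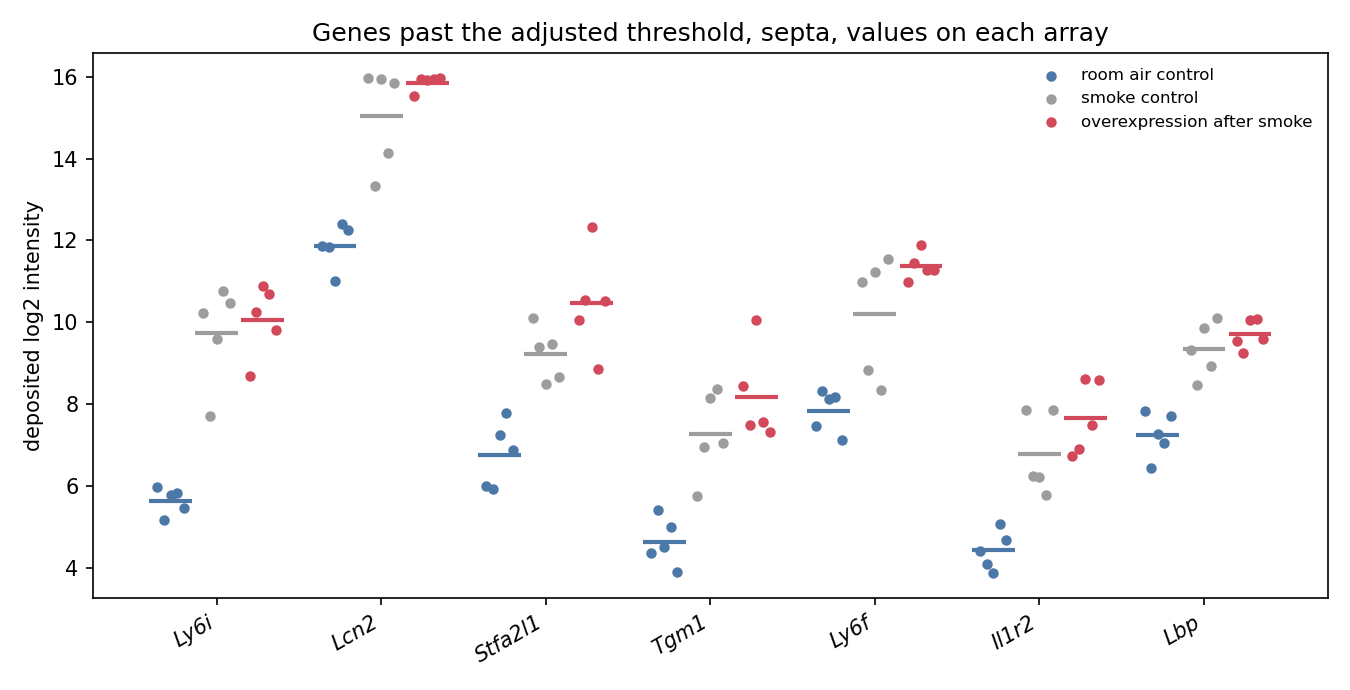
Deposited log2 intensity (vertical axis) of the 7 genes that rose, on each of the 5 room air, 5 smoke control and 5 overexpression arrays of septa. Points are arrays and bars are group means. For all 7 the overexpression points lie above every room air point, and the smoke controls reach into the overexpression span.

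The smoke controls also stood above room air for the 7 genes. Smoke controls minus room air gave 4.10 for Ly6i, 3.17 for Lcn2, 2.45 for Stfa2l1, 2.62 for Tgm1, 2.34 for Ly6f, 2.36 for Il1r2 and 2.08 for Lbp. Overexpression minus smoke controls gave 0.31, 0.81, 1.24, 0.91, 1.18, 0.88 and 0.36 in the same order, all positive. Without smoke control replicate 4 the same 7 values were 0.57, 0.58, 1.29, 1.19, 0.72, 0.62 and 0.27. These comparisons share arrays with the main one and are not independent of it. Smoke controls against room air gave 22 genes higher (0.126 percent) and 4 lower (0.023 percent) at an adjusted p under 0.05, with 9.06 and 8.58 percent at an unadjusted p under 0.05. The higher genes included Ly6i, Lcn2 and Lbp (limma adjusted p = 0.00531, 0.014 and 0.0437). Over all 17398 genes, overexpression against smoke controls gave 0 higher and 0 lower at an adjusted p under 0.05 (limma), with 479 (2.75 percent) and 633 (3.64 percent) at an unadjusted p under 0.05. Leaving out each of the 15 arrays in turn kept Ly6i and Lcn2 past the threshold every time, Stfa2l1 8 times, Il1r2 7, Lbp 6, Ly6f 6 and Tgm1 4.

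Promoters of the genes that rose are shown because these genes passed the same threshold. Whether they share regulation was not tested. RefSeq (GRCm38.p6) gave a promoter for 5 of the 7, and Ly6i and Lbp were not among them. Each printed sequence holds 250 bases before and 50 bases from the gene's start. Letters searched on both strands were TTGCNNAA for C/EBP factors, TTCNNNGAA for STAT factors, CACGTG for the E-box and TTANGTAA for the D-box, together with an NF-kB motif, and capitals mark matches. Lcn2 lies on the minus strand of chr2:32387690-32387989, Ly6f on the plus strand of chr15:75268171-75268470, Tgm1 on the minus strand of chr14:55713443-55713742, the first of 2 listed starts, and Il1r2 on the plus strand of chr1:40085843-40086142.
Lcn2: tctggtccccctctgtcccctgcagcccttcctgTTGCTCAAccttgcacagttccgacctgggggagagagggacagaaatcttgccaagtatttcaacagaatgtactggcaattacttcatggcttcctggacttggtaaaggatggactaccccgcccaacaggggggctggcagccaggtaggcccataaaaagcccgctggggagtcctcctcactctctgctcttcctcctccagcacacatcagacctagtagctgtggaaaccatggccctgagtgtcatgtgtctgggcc
Ly6f: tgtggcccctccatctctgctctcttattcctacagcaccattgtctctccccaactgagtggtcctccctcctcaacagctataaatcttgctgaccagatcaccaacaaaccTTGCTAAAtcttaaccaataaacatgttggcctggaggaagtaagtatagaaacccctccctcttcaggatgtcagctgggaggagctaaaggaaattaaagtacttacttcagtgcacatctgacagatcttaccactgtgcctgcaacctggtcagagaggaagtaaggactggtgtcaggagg
Tgm1: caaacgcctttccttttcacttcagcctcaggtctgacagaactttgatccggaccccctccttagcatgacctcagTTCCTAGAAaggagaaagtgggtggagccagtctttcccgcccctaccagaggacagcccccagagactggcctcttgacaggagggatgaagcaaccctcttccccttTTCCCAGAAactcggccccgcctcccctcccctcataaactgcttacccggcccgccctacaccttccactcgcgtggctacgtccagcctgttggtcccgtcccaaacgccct
Il1r2: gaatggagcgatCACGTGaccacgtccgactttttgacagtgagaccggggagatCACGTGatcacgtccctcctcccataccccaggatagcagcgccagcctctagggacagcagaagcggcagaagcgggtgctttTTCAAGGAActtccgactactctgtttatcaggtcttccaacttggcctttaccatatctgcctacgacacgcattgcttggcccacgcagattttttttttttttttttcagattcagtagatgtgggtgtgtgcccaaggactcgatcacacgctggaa

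In these windows Lcn2 and Ly6f hold 1 match each to the C/EBP letters. Tgm1 holds 2 matches to the STAT letters, and Il1r2 holds 1 STAT match and 2 E-boxes. Stfa2l1 holds none of the motifs searched, and none of the 5 windows holds the NF-kB letters searched or the D-box. Among 32851 promoters of the same length, 10.8 percent hold the C/EBP letters, 8.3 percent the STAT letters, 7.15 percent the E-box, 1.63 percent the NF-kB motif and 2.32 percent the D-box. A match of letters is a description and not evidence of binding.

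Acute phase and chitinase-like genes were mostly higher. Of 19 tested, 16 were positive, against 49.1 percent of all genes, with a median difference of 2.02 against -0.01 over all genes. At an unadjusted p under 0.05, 14 were higher and 0 lower, and 9 had groups that did not overlap, but none passed the adjusted threshold. The shares of all genes were 4.53 percent higher and 2.52 percent lower, and without overlap 1.02 percent higher and 0.793 percent lower. Counts of the lists below stand against these shares. Saa3, an acute phase apolipoprotein made locally in mouse tissue, read 7.41, 3.80, 4.39, 5.93 and 4.49 in room air and 8.31, 10.37, 8.57, 11.98 and 10.23 after overexpression. Its difference was 4.69 ± 1.06 (adjusted p = 0.141), and all overexpression arrays lay above all room air arrays. Chil3, a chitinase-like protein of mouse macrophages also known as Ym1, read 9.90 to 13.24 in room air and 15.11 to 15.94 after overexpression, a difference of 3.97 ± 0.72 (adjusted p = 0.076). These arrays approach the top of the scale, 15.98, so the difference may be compressed. Chil4, its relative, differed by 3.65 ± 0.72 (adjusted p = 0.0771). Orm1, a plasma acute phase glycoprotein, differed by 3.42, and Lrg1, a secreted leucine-rich glycoprotein, by 2.50.

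Complement and protease inhibitors of the same list lay on the same side. Cfb, complement factor B, differed by 2.15 and C3, the central complement protein, by 1.72. Serpina1a and Serpina1b, the mouse antitrypsins that inhibit neutrophil elastase, differed by 2.85 and 2.36. They are near copies, and their probes may share signal. Serpina3n, an inhibitor of serine proteases, differed by 2.05 after overexpression but by only 0.62 in the smoke controls. Itih4 went the other way, with 2.02 after overexpression and 2.82 in smoke controls. Ptx3, Orm2 and Saa1 were the negative members, at -1.03, -0.94 and -0.55, and none of these passed even the unadjusted threshold.

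**Figure D2:**
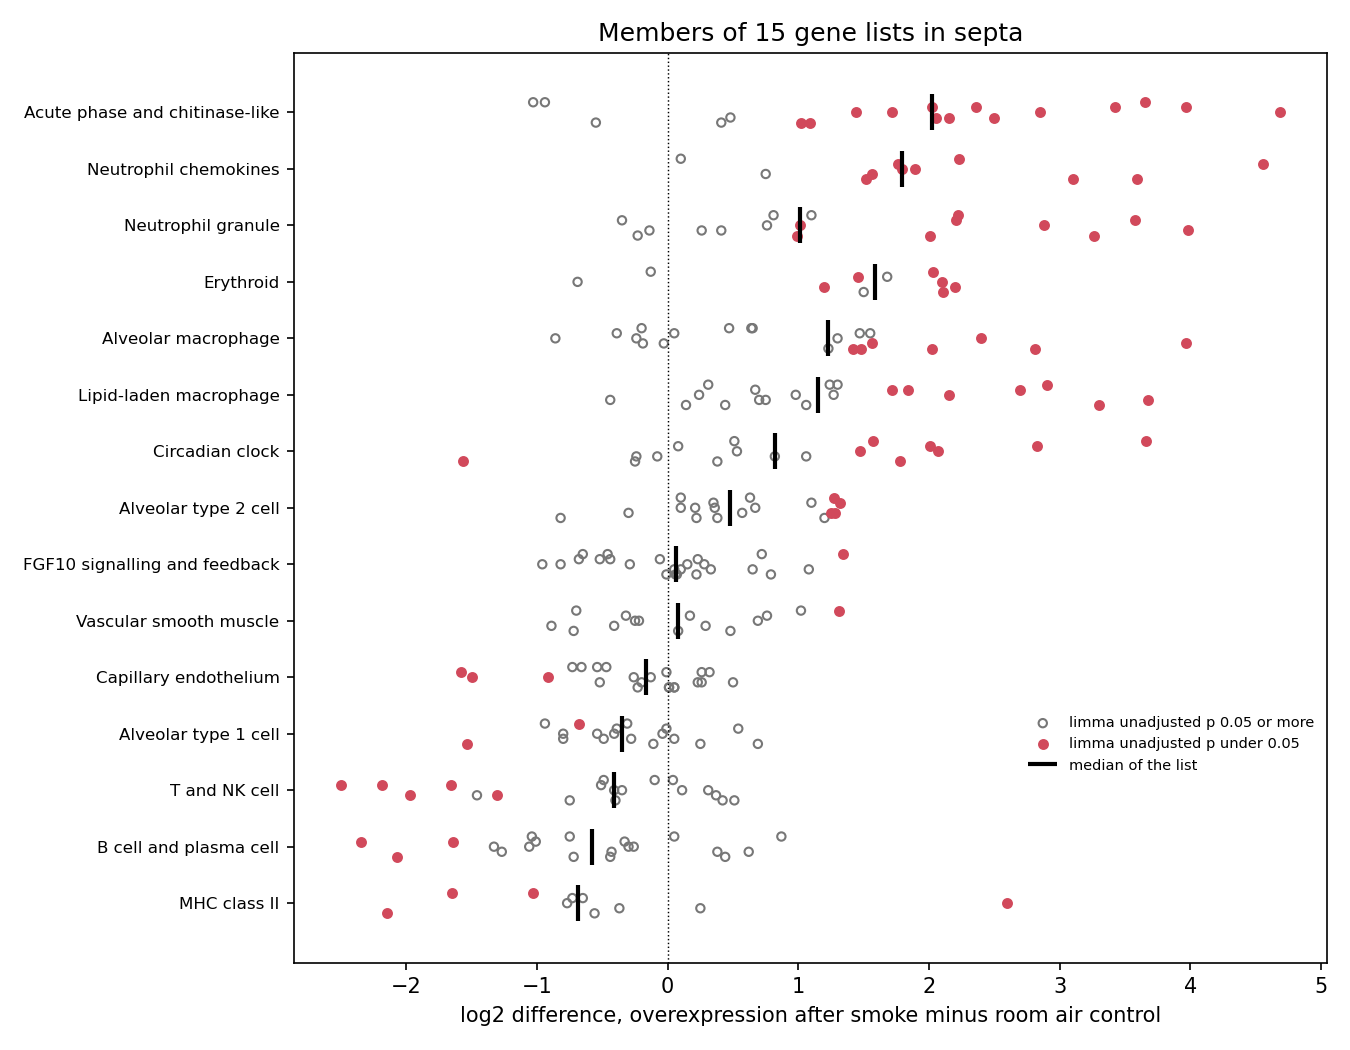
Log2 difference between overexpression after smoke and room air in septa (horizontal axis) for the tested members of 15 gene lists. Filled red points have a limma unadjusted p under 0.05, open grey points do not, and black bars are list medians. The acute phase median lies at 2.02, the neutrophil chemokine median at 1.79 and the MHC class II median at -0.69.

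All 11 tested neutrophil chemokines and receptors were positive (10 with arrays centred), with a median of 1.79. Of these, 9 had an unadjusted p under 0.05, 3 had groups that did not overlap, and none passed the adjusted threshold. Among all genes 4.53 percent were higher at that unadjusted p, and 1.02 percent were higher without overlap. Cxcl3 and Cxcr1 exceeded percentile 40 on 0 of 5 room air arrays and Cxcl17 on 1. They met the filter on dim genes through the smoke-exposed arrays, so their positive direction was largely set by the filter. Csf3, also on the list, was too dim to be tested. Cxcl5, a neutrophil attractant made by alveolar type 2 cells, read 6.94, 7.14, 6.01, 5.09 and 6.36 in room air and 11.31, 11.77, 9.08, 11.15 and 11.03 after overexpression. The difference was 4.56 ± 0.96 (adjusted p = 0.103), with no overlap. Smoke controls of Cxcl5 ranged from 5.77 to 12.70, the highest being replicate 4, and overexpression minus smoke controls was 1.40 with that array and 2.21 without it. Cxcl1, another attractant, read 4.93 to 5.96 in room air and 8.32 to 10.15 after overexpression, a difference of 3.59 ± 0.78 (adjusted p = 0.123). Its smoke controls ran from 7.93 to 13.43, again highest on replicate 4.

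The receptors followed the ligands in direction. Cxcr1 read 4.02 to 5.06 in room air, with 0 of 5 arrays above percentile 40, and 5.97 to 9.54 after overexpression. Cxcr2, the main neutrophil receptor in mice, overlapped between groups at 6.58 to 10.43 and 9.58 to 12.36. Cxcl15, the lung-specific chemokine of mouse epithelium, differed by 0.10 (-0.03 with arrays centred). Among other chemokines, Ccl17, a dendritic cell product that attracts T cells, differed by 2.75 (adjusted p = 0.145), Ccl9 by 2.21 and Ccl6 by 1.81, both attractants of myeloid cells. Osm, a cytokine of the interleukin 6 family made by neutrophils and macrophages, read 6.86 to 9.02 in room air and 9.95 to 11.24 after overexpression. It differed by 2.89 ± 0.53 (adjusted p = 0.0768), while smoke controls differed from room air by 1.51.

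Neutrophil granule genes were uneven. Of 17 tested, 14 were positive, the median was 1.01, and 9 were higher at an unadjusted p under 0.05, of which Lcn2 passed the adjusted threshold. Among members that did not pass the adjusted threshold, Stfa2 differed by 3.58, Retnlg, a resistin-like secreted protein, by 3.26, Stfa1 by 2.88, Stfa3 by 2.22 and Mmp8, a granule collagenase, by 2.21. S100a8, a subunit of the calcium-binding protein calprotectin, read 11.12 to 13.19 in room air and 12.78 to 15.26 after overexpression, a difference of 2.01. Its partner S100a9 read 13.59 to 13.93 and 13.24 to 15.10, a difference of 0.26. The granule protein genes Ngp, Ltf and Camp differed by 0.76, 0.81 and -0.35. Csf3r, the receptor for the granulocyte growth factor, differed by -0.14 at a level near the top of the scale. None of these except Lcn2 passed the adjusted threshold.

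Erythroid genes, a measure of blood, are given beside the neutrophil genes. The mean level of 10 erythroid genes was 8.77 to 10.15 in room air (median 9.12) and 10.14 to 11.25 after overexpression (median 10.43). Of these 10 genes, 8 were positive, the median difference was 1.59, and 6 were higher at an unadjusted p under 0.05, but none passed the adjusted threshold. Hbb-bt, a beta globin, read 8.85 to 11.35 in room air and 11.44 to 13.19 after overexpression, without overlap. Globin genes are near copies and their probes may share signal. Klf1 and Epb42, of red cell precursors, were the negative members at -0.13 and -0.69. Alas2, the erythroid enzyme of haem synthesis, read 6.48 to 9.73 in room air and 9.16 to 12.19 after overexpression. The mean of 17 neutrophil granule genes was 7.75 to 8.58 in room air and 8.72 to 10.40 after overexpression. Within the overexpression group the neutrophil mean was highest on replicate 3 and the erythroid mean on replicate 5. The part of blood content in the neutrophil values was not tested.

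Macrophage lists had positive medians against room air and negative medians against the smoke controls. Of 21 alveolar macrophage genes, 15 were positive with a median of 1.23, and 7 were higher at an unadjusted p under 0.05. Their mean level was 7.81 to 9.28 on room air arrays and 8.86, 8.89, 8.90, 10.42 and 10.22 on overexpression arrays. Overexpression replicates 1, 2 and 3 thus lay within the room air span, and replicates 4 and 5 lay above it. Of 20 genes of lipid-laden macrophages, 19 were positive with a median of 1.15, and 7 were higher. None passed the adjusted threshold. The medians of overexpression minus smoke controls for the same lists were -0.83 and -0.66. Chil3 stands in both the alveolar macrophage and the acute phase lists. Marco, a scavenger receptor for particles, read 10.26, 10.23, 9.44, 9.94 and 7.40 in room air and 12.60, 11.65, 12.09, 12.41 and 12.55 after overexpression, a difference of 2.81 ± 0.74. Gpnmb, a lysosomal glycoprotein of lipid-filled macrophages, differed by 3.30 ± 0.69 (adjusted p = 0.101), and Spp1, osteopontin, by 3.68 ± 0.72 (adjusted p = 0.0771).

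Ctsk stepped down between the smoke groups in its means. This protease of macrophages and osteoclasts read 4.34, 5.16, 5.29, 4.33 and 5.44 in room air. Smoke controls read 10.84, 8.22, 11.33, 12.60 and 10.68, and overexpression arrays read 6.21, 6.55, 7.47, 9.01 and 8.85. Overexpression thus lay wholly above room air and overlapped the smoke controls only at replicate 2 of the latter. The difference was 2.70 against room air and -3.12 against smoke controls (-2.65 without smoke control replicate 4), and neither passed the adjusted threshold. Mrc1, the mannose receptor, gave 2.02 and -0.96, Trem2, a lipid-sensing receptor, 2.15 and -1.55, and Slc7a2, an arginine carrier, 2.40 and -1.35. Mmp12, the macrophage elastase, overlapped widely between groups and differed by 1.24 from room air. Ch25h, the enzyme that makes 25-hydroxycholesterol, differed by 3.94 ± 0.84 (adjusted p = 0.104) without overlap, and by 0.04 from smoke controls.

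**Figure D3:**
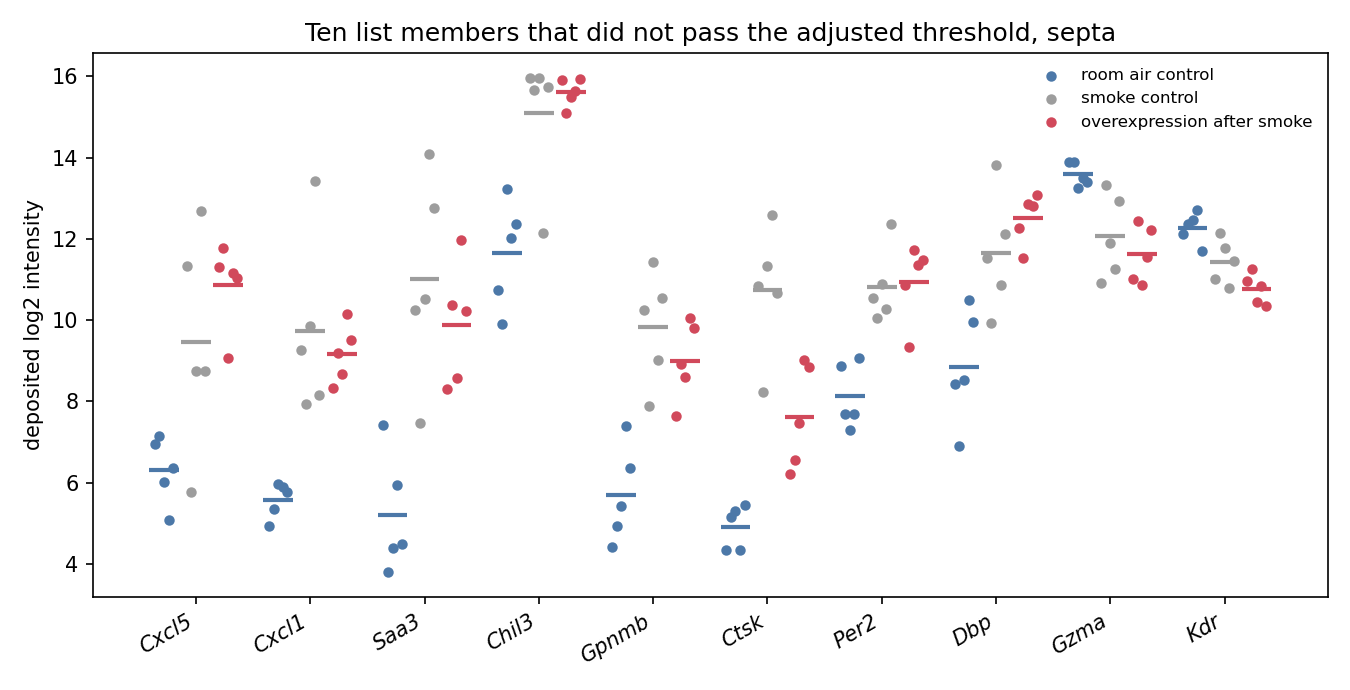
Deposited log2 intensity (vertical axis) of 10 list members that did not pass the adjusted threshold, on each room air, smoke control and overexpression array of septa. Points are arrays and bars are group means. Ctsk lies lower after overexpression (6.21 to 9.01) than in most smoke controls, while the overexpression mean of Cxcl5 lies above the smoke control mean.

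Type 2 cell genes leaned upward and type 1 cell genes downward. Of 18 type 2 genes, 16 were positive with a median of 0.48, and 4 were higher at an unadjusted p under 0.05. Sftpb, a surfactant protein that spreads the lipid film, read 11.18, 11.25, 11.36, 11.76 and 11.55 in room air and 12.24, 12.79, 12.77, 12.92 and 12.77 after overexpression. Its difference was 1.28 ± 0.35 (adjusted p = 0.278), with no overlap between groups, and smoke controls ranged from 10.93 to 12.66. Sftpd, a collectin that binds microbes, differed by 1.32 ± 0.35 without overlap (adjusted p = 0.255). Sftpc, whose signal reached 15.98, differed by 0.10 (-0.03 with arrays centred) at the top of the scale, where differences are compressed. Of 18 type 1 genes, 4 were positive with a median of -0.35, and 2 were lower at an unadjusted p under 0.05, Col4a3 and Cav1. That count was 4 without smoke control replicate 4 and 5 with arrays centred. In the main fit 4.53 percent of all genes were higher and 2.52 percent lower. No gene of the type 1 and type 2 lists passed the adjusted threshold.

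Capillary genes held a median of -0.16 over 22 genes, with 0 higher and 3 lower at an unadjusted p under 0.05, Aplnr, Kdr and Kit. All genes gave 4.53 percent higher and 2.52 percent lower. Kdr, the main receptor for Vegfa on endothelium, read 12.11, 12.38, 12.47, 12.71 and 11.70 in room air and 10.97, 11.26, 10.44, 10.85 and 10.35 after overexpression. The difference was -1.50 ± 0.35 (adjusted p = 0.164), with no overlap, and smoke controls at 10.79 to 12.14 overlapped both groups. The other probes of Kdr differed by 0.03 and -0.67, so the probes disagree. Aplnr, the apelin receptor of general capillaries, differed by -1.58. In the list of VEGF and angiopoietin genes, Tek, the angiopoietin receptor, differed by -0.86 and Vegfc, a ligand for lymphatic endothelium, by 1.09. None passed the adjusted threshold. Smooth muscle genes, a measure of vessel wall, had a median of 0.08 over 15 genes (-0.05 with arrays centred), and their mean level was 10.11 to 10.55 in room air and 10.34 to 10.66 after overexpression.

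Lymphocyte genes leaned downward in part. Of 19 T and NK cell genes, 13 were negative with a median of -0.41, and 5 were lower at an unadjusted p under 0.05. Gzma, a granzyme of NK and T cells, read 13.90, 13.90, 13.25, 13.50 and 13.39 in room air and 11.01, 12.45, 10.87, 11.55 and 12.21 after overexpression. Its difference was -1.97 ± 0.47 (adjusted p = 0.186) without overlap. Tbx21, the transcription factor T-bet, differed by -2.50, Cd8a by -2.19 and Ncr1, an NK cell receptor, by -1.66. The other Cd8a probe differed by 0.40. The T cell receptor chains Cd3e and Cd3d differed by 0.51 and 0.37, so the list did not move as one. Of 20 B cell and plasma cell genes, 15 were negative with a median of -0.58, and 3 were lower, Bank1 by -2.35, Cxcr5 by -2.07 and Cr2 by -1.64. Array means of the B cell list spread from 7.25 to 9.51 after overexpression and from 8.49 to 8.99 in room air. In vessel the same contrast gave positive medians, 0.29 for T and NK cell genes and 0.56 for B cell genes. Each list had 12 of 18 genes positive there, against 50.5 percent of all genes.

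MHC class II genes were split. Of 10 tested, 8 were negative with a median of -0.69. At an unadjusted p under 0.05, 3 were lower and 1 higher. H2-DMb2 and H2-DMb1, chains of the factor that loads peptide, differed by -2.15 and -1.03, and H2-Ob, a chain of its inhibitor, by -1.65. The other H2-DMb1 probe differed by 0.85, so its probes disagree. H2-Eb1, a peptide-presenting chain, differed by 2.60 in the other direction. No gene of these lymphocyte and MHC lists passed the adjusted threshold.

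Circadian clock genes were mostly positive. Of 17 tested, 13 were positive with a median of 0.82, and 7 were higher and 1 lower at an unadjusted p under 0.05. Dbp, a clock-driven transcription factor, read 8.42, 6.89, 8.52, 10.49 and 9.96 in room air and 12.27, 11.54, 12.87, 12.81 and 13.08 after overexpression. The difference was 3.66 ± 0.71 (adjusted p = 0.0768), without overlap, and 1.44 on the other probe. Per2, a repressor of the clock, read 7.30 to 9.07 in room air and 9.33 to 11.73 after overexpression, a difference of 2.83 ± 0.55 (adjusted p = 0.0768). Bhlhe40, a further repressor, differed by 2.01 without overlap, and Per1 by 2.07. Arntl, the activator that opposes them, differed by -1.57 on its brightest probe and by -0.03 and -0.59 on the others. Only 2 of 5 overexpression arrays of Arntl exceeded percentile 40. Smoke controls gave 2.80 for Dbp, 2.70 for Per2 and -1.57 for Arntl against room air, values close to those after overexpression. The labels give no time of tissue harvest.

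**Figure D4:**
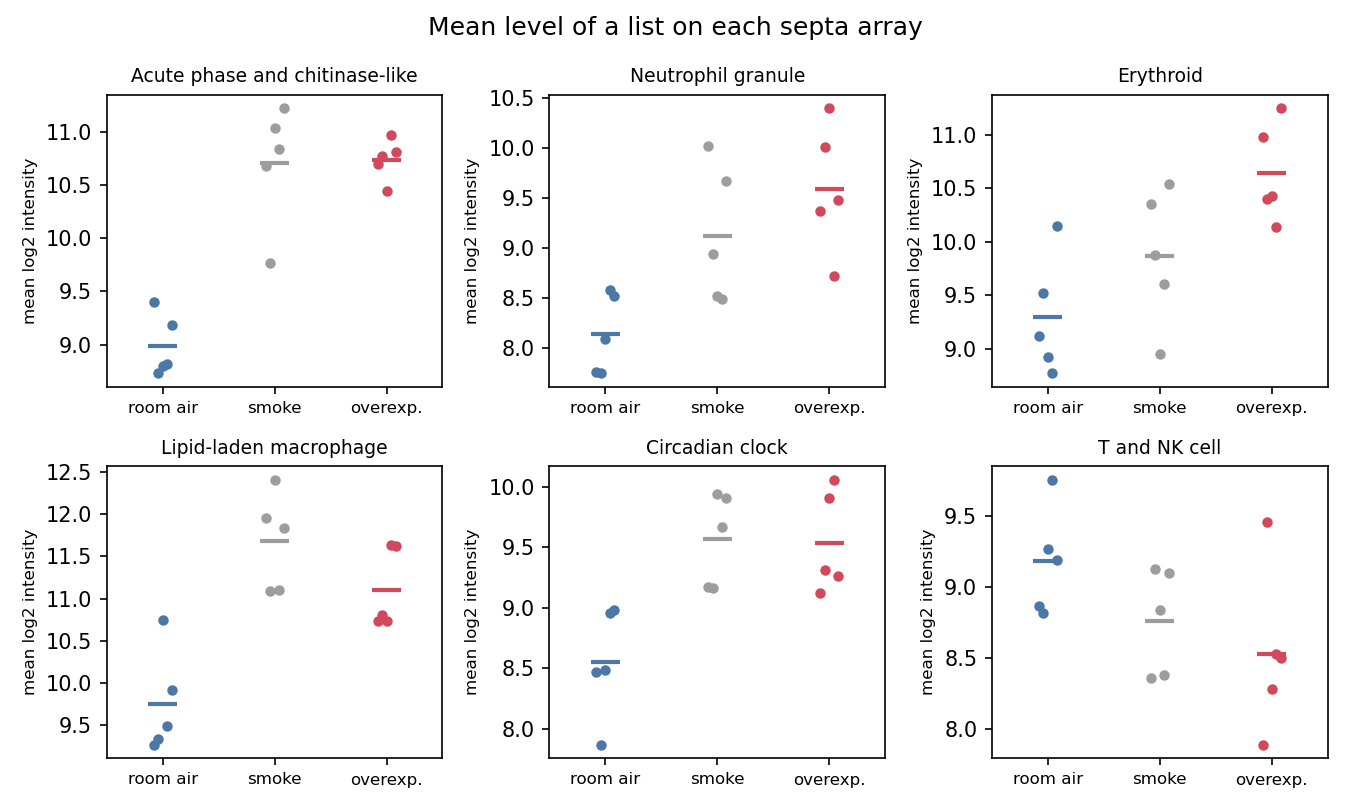
Mean log2 intensity (vertical axis) over the tested genes of 6 lists on each septa array, by group. Points are arrays and bars are group means. Room air and overexpression do not overlap for the acute phase, neutrophil granule and circadian clock lists, and touch for the erythroid (10.14 against 10.15) and lipid-laden macrophage lists.

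No gene of the FGF10 pathway passed the adjusted threshold. Of 24 tested genes, 14 were positive with a median of 0.07 (-0.06 with arrays centred), and 1 was higher and 0 lower at an unadjusted p under 0.05, Fgfr1 by 1.34. At that threshold 4.53 percent of all genes were higher and 2.52 percent lower. The receptor gene Fgfr2 differed by 0.07 ± 0.40 on its brightest probe (-0.06 with arrays centred), by 1.27 on the other and by 0.67 with the mean of both. The targets Etv5 and Dusp6 differed by 0.22 ± 0.41 and 0.15 ± 0.41, Etv4 by -0.46 ± 0.85, and the feedback inhibitors Spry2 and Spry4 by 0.72 ± 0.47 and 0.79 ± 0.54. The limma adjusted p of these genes ran from 0.802 for Spry2 to 0.979 for Fgfr2. Spry4 read 5.42, 5.10, 6.29, 6.45 and 6.42 in room air, 7.42, 8.04, 7.14, 9.35 and 8.46 in smoke controls and 7.57, 6.11, 7.56, 7.24 and 5.15 after overexpression. Smoke controls thus lay wholly above room air for Spry4, and the overexpression arrays overlapped both.

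Nos2, the inducible nitric oxide synthase, read 7.39 to 8.73 in room air and 8.01 to 8.66 after overexpression, a difference of 0.33 ± 0.64. Among 20 genes of nitric oxide and cGMP signalling the median was -0.18, with 3 higher and 2 lower at an unadjusted p under 0.05 (3 and 4 without smoke control replicate 4). In the main fit the shares of all genes were 4.53 and 2.52 percent. The 3 higher genes all handle arginine. Ass1, which with Asl remakes arginine from citrulline, read 5.58, 5.72, 5.39, 6.10 and 6.66 in room air and 6.72, 7.57, 8.68, 7.31 and 9.43 after overexpression, a difference of 2.05 ± 0.51 (adjusted p = 0.206). Asl differed by 1.29 and Arg2, the mitochondrial arginase, by 1.09, while Arg1, the cytosolic arginase, differed by -1.03. Groups did not overlap for Ass1, Asl and Arg2, and none of these genes passed the adjusted threshold.

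Several smoke-responsive genes had means between room air and smoke controls. Cyp1a1, the enzyme induced by smoke hydrocarbons through the aryl hydrocarbon receptor, had a mean 1.11 above room air after overexpression, against 2.13 in the smoke controls. The metallothioneins Mt1 and Mt2, which bind metals such as zinc and cadmium, differed by 2.29 and 2.73, against 3.48 and 3.74 in smoke controls. Gstp1, a glutathione transferase, was not among these, with 1.64 without overlap against 1.58. Slco2b1, an organic anion carrier, differed by 1.85 without overlap, against 2.56, while its other probe differed by -0.31. The antioxidant list of Nfe2l2 targets held 17 positive genes of 22 with a median of 0.26, and 1 was higher at an unadjusted p under 0.05. At that threshold 4.53 percent of all genes were higher. None of these genes passed the adjusted threshold.

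Wnt genes leaned downward, with 19 of 30 negative, a median of -0.28 and 5 lower at an unadjusted p under 0.05. Lef1, a transcription factor of the pathway, differed by -2.01, Wnt7a, a ligand of alveolar epithelium, by -1.39, and Axin2, its feedback target, by -1.16. The probes of Axin2 and Lef1 disagreed, with 1 of 2 and 2 of 3 negative. Lists with medians within 0.3 of 0 and at most 2 genes past the unadjusted threshold in either direction included collagen chains (-0.07 over 20 genes), elastic fibre (-0.10 over 21), interferon-stimulated genes (-0.02 over 23) and the integrated stress response (0.04 over 20, -0.09 with arrays centred). Without smoke control replicate 4 the interferon-stimulated list had 3 lower genes. Cell cycle genes gave 0.21 over 24 genes.

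No gene passed the threshold on the lower side, and the 10 of smallest p are given as not having passed. Scx, scleraxis, a transcription factor of tendon and matrix-forming cells, read 9.83, 8.74, 9.28, 8.80 and 9.21 in room air and 7.03, 7.30, 7.45, 7.79 and 7.30 after overexpression. Its difference was -1.80 ± 0.37 (adjusted p = 0.0955). Smoke controls of Scx read 9.54, 9.58, 9.77, 8.40 and 8.28, so overexpression lay wholly below both other groups. Ackr4, a receptor that removes the chemokines Ccl19 and Ccl21, read 12.92, 12.41, 13.02, 13.48 and 12.90 in room air and 7.89, 10.71, 6.0, 11.18 and 10.68 after overexpression. Its smoke controls ran from 11.18 to 13.43 and reached the highest overexpression array. The difference was -3.65 ± 0.81 (adjusted p = 0.129) on the brightest probe and -0.90 on the other.

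Mettl24, named as a methyltransferase-like gene, differed by -2.26 from room air with overlap (5.15 to 8.20 against 7.96 to 10.55) and lay wholly below the smoke controls, which read 8.52 to 9.14. Mcc, a gene named for colorectal cancer, had no overlap, with 12.43 to 12.81 in room air and 10.87 to 11.73 after overexpression. Slitrk6, a membrane protein of neurons, and Klhl14, a kelch-like adaptor, differed by -3.09 and -2.97, and each had 1 of 5 overexpression arrays above percentile 40. Kbtbd3, another kelch-domain gene, differed by -2.39. For Ikzf3, the lymphocyte transcription factor Aiolos, and Olfr164, an olfactory receptor gene, the smoke controls lay as low as the overexpression arrays. Ikzf3 differed by -2.54 from room air after overexpression and by -2.37 in smoke controls, with all 6 probes negative. Olfr164 gave -3.43 and -3.47. Adjusted p for these 10 genes ran from 0.0955 to 0.184.

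The same contrast in the vessel compartment, measured on 10 other arrays, gave 10 genes higher (0.0549 percent of 18202) and 5 lower (0.0275 percent) at an adjusted p under 0.05 (limma), with 5.12 and 4.08 percent of genes at an unadjusted p under 0.05. Of the 7 genes that rose in septa, Lcn2 rose there by 3.27 ± 0.36 (adjusted p = 0.0013) and Stfa2l1 by 3.19 ± 0.50 (adjusted p = 0.0303). Ly6i differed by 3.52, Ly6f by 3.19, Tgm1 by 1.63, Lbp by 1.36 and Il1r2 by 1.30 in vessel, without passing. Stfa2 (4.12), Cxcl5 (5.99) and Cfb (3.21) rose in vessel with adjusted p of 0.0322, 0.0134 and 0.0358, and in septa their differences did not pass. No difference between compartments passed in a fit of the 30 eight-month arrays (limma, 0 higher and 0 lower of 19926, with 544, 2.73 percent, and 412, 2.07 percent, at an unadjusted p under 0.05). Septa minus vessel was 1.94 ± 0.86 for Il1r2 and 1.90 ± 1.11 for Tgm1, both with an adjusted p of 0.996. This fit took all 30 arrays as independent. If the compartments share animals, which is not stated, its errors and p-values would not hold.

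Smoke at 3 months in wild-type septa, on 10 further arrays, gives the same genes at an earlier time and without Fgf10 overexpression. Cxcl5 differed by 5.69 there (adjusted p = 0.0263), Saa3 by 4.18, Gpnmb by 3.64, Marco by 3.64 and Dbp by 3.99. Of the genes that rose at 8 months, Ly6i differed by 2.31, Ly6f by 1.22, Lcn2 by 1.18, Tgm1 by 0.94 and Lbp by 0.35. Il1r2 and Stfa2l1 differed by -1.11 and -0.82, and the neutrophil genes Retnlg and Stfa2 by -1.19 and -1.04. The unadjusted limma p of these 4 genes ran from 0.195 to 0.279. Other neutrophil granule genes were positive at 3 months, with 0.61 for Ltf, 0.54 for Ngp and 0.34 for Camp. Of that list 8 of 17 genes were positive, against 53.4 percent of all genes. The median of the neutrophil granule list was 0.00 at 3 months, against 1.01 after overexpression at 8 months, and that of the erythroid list was -0.94 against 1.59. Smoke controls minus room air at 8 months, without overexpression, gave medians of 0.72 and 0.76 for these lists. A change between the time points was not tested. At 3 months 4 genes were higher (0.023 percent of 17394) and 1 lower (0.00575 percent) at an adjusted p under 0.05 (limma), with 5.96 and 3.95 percent at an unadjusted p under 0.05. Without a smoke array whose labels conflict no gene passed, while Cxcl5 still differed by 5.94.

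**Figure D5:**
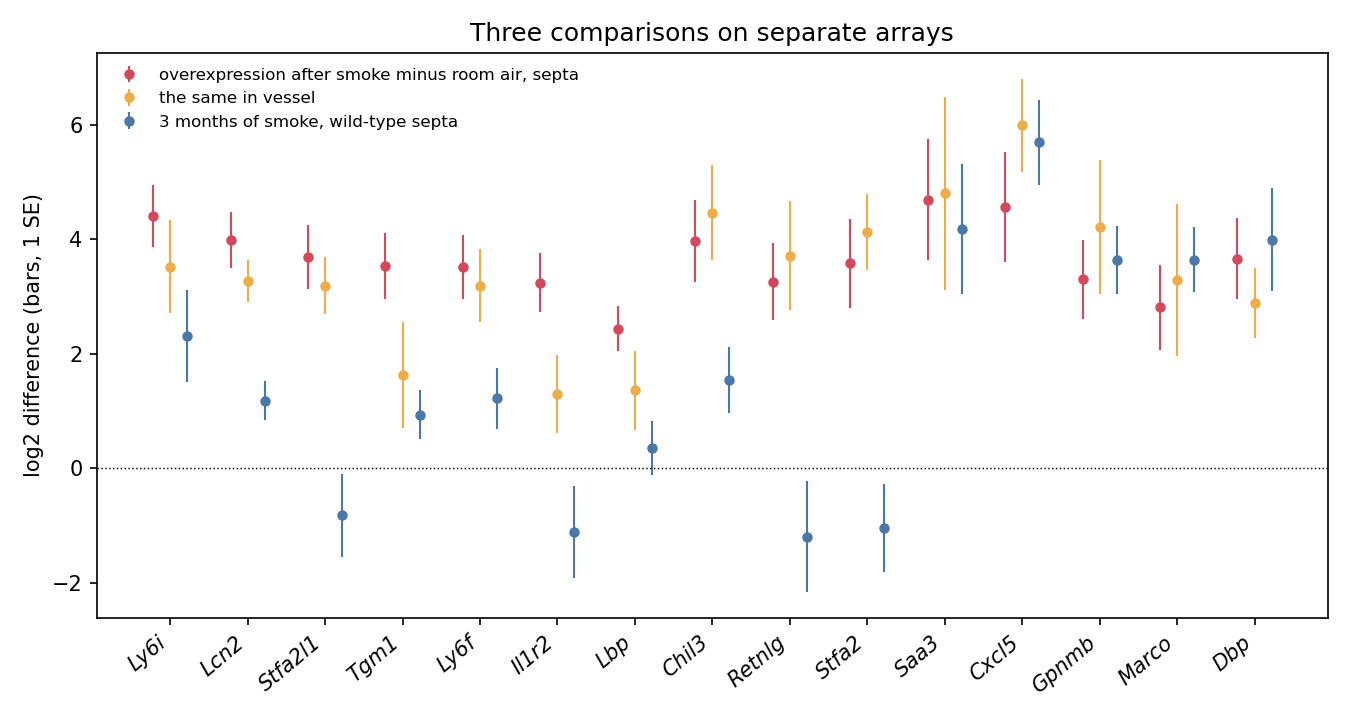
Log2 difference with 1 SE (vertical axis) for 15 genes in overexpression after smoke minus room air in septa, the same in vessel, and 3 months of smoke minus room air in wild-type septa, which use separate arrays. Ly6i, Saa3, Cxcl5, Gpnmb, Marco and Dbp lie above 2 in all 3. Stfa2l1, Il1r2, Retnlg and Stfa2 lie below 0 at 3 months.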

How the data were processed

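RNA of laser-microdissected septa was purified, amplified and hybridised to 1-colour arrays, per the labels' protocols. The log2 intensities deposited by the authors ran from 3.27 to 15.98 over 62976 features. Their notes name limma without a version, and a percentile differed by at most 0.00264 between arrays, so values were already quantile normalised. The labels do not state background correction, slides or scan dates. The number of arrays limits the precision. Of the features, 43941 had 1 gene name in the platform annotation and 19035 none, and names were updated through RefSeq by accession (33708), symbol (9763) or synonym (463), with 7 kept. The brightest of a gene's probes by mean over 68 arrays was used. Genes above percentile 40 of the array on at least 5 of 15 arrays were tested. The 3 eight-month septa groups were fitted together with limma 3.58.1 in R 4.3.3, two-sided, with Benjamini-Hochberg adjusted p-values. The script was tested on simulated data. Named are genes past the threshold, the 10 lower genes of smallest p, 8 followed genes and list members. Members and lists were chosen with earlier results of these data known. Replicates labelled by number were not paired: same-numbered room air and overexpression arrays deviated together with correlations of -0.23 to 0.39.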

Additional observations from a re-analysis of the deposited data

Results flagged for a closer look

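In 18 of 249 combinations of a described gene and a group of 5 arrays (7.23 percent, over 121 genes), 1 array stood far from the others by Dixon's test (critical value 0.71). Chance gives about 1 in 20 such combinations. Values below are log2 intensities, and the cause was not tested for any of them. Among room air arrays, replicate 3 was high for Kbtbd3 at 10.34 (others up to 7.97) and Serpina3n at 10.16 (others up to 8.02), and low for Sftpd at 12.70 (others from 13.22) and Alas2 at 6.48 (others from 9.09). Room air replicate 5 was high for Cxcl17 at 6.90 and Hba-a2 at 13.68, and low for Marco at 7.40 (others from 9.44). Room air replicate 4 was high for Cxcr1 at 5.06, and replicate 2 was low for Itih4 at 8.62.

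Among overexpression arrays, replicate 1 was low for Lcn2 at 15.53 (others from 15.91) and Sftpb at 12.24 (others from 12.77). It was high for Sftpc at 15.98 and Axin2 at 8.41 (others up to 6.66). Overexpression replicate 2 was high for Klhl14 at 6.85 (others up to 4.68) and Arg1 at 5.71, and low for Osm at 9.95 (others from 10.99). Overexpression replicate 3 was low for Cxcl5 at 9.08 (others from 11.03), and replicate 4 for Wnt7a at 8.11 (others from 9.25).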

How the results depend on the processing

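The 7 genes higher and 0 lower became 1 and 0 with all 34 septa arrays in the fit. They became 21 and 0 without the 2 low-correlation arrays in that fit, 21 and 0 with the 2 groups alone, 14 and 1 with the mean of all probes, 19 and 0 with array weights, and 7 and 1 with Xist as a covariate. With the replicate number as a block they were 2 and 0, but the numbers do not pair the arrays: 1 of 5 overexpression arrays correlated best with its own number. Leaving out 1 array gave 2 to 16 higher and 0 to 1 lower. Without room air replicates 1 to 5 in turn the higher counts were 2, 2, 3, 5 and 3, without overexpression replicates 1 to 5 they were 9, 2, 2, 3 and 2, and without smoke controls 1 to 5 they were 9, 13, 7, 16 and 6. The lower gene appeared without room air replicate 4. Ly6i passed in all 26 alternatives and Lcn2 in 25, failing with all 34 arrays (adjusted p = 0.257). Stfa2l1 passed in 17, Il1r2 in 16, Lbp and Ly6f in 15 and Tgm1 in 12. In vessel, 10 higher and 5 lower became 4 and 2 with the 2 groups alone. At 3 months, 4 higher and 1 lower became 0 and 0 without the array of conflicting labels. Causes were not tested.

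Differences near 0 changed sign. Fgf10 was 0.71 with the mean of all probes and -0.26 to 0.32 with 1 array left out. Fgfr2 was -0.06 with arrays centred, 0.67 with the mean of all probes and -0.11 to 0.26 with 1 array left out. Dusp6 ran from -0.03 to 0.26, S100a9 from -0.00 to 0.46, Camp from -0.81 to 0.14 and Cxcl15 from -0.04 to 0.22 with 1 array left out. Camp was 0.22 with array weights, and Cxcl15 and Sftpc were both -0.03 with arrays centred. Over all single genes and settings, 36 values newly passed and 56 no longer passed. Settings that change only the other arrays in the fit, the filter, the moderation or the block leave the difference itself as it is and bear on the p-value alone. With 5 arrays a group, the spread between arrays and signals at either end of the scale limit small differences.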
